A study of Mus musculus with 11 samples.

Results

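Bile acid transport and bile acid sensing in the liver were followed through 10 genes, chosen by name. They encode the sensing branch (Nr1h4, Nr0b2, Fgfr4 and Klb), the carriers that take bile acids up from blood (Slc10a1, Slco1a1 and Slco1b2) and the pumps of the canalicular membrane (Abcb11, Abcc2 and Abcb4). The 10 genes were found among 36788 Ensembl gene identifiers, and all 10 were among the 12733 genes tested, those with a mean of at least 0.5 CPM (reads on a gene scaled to a library total of 1000000). The libraries came from livers of female mice older than 12 weeks, wild type and C57BL/6 by their labels, whereas the study's methods, in a passage on its Cre lines, describe a mixed background of 129 and C57BL/6J for its mice. Every animal of both groups had been ovariectomized (OVX) and was fed a high-fat diet (HFD), so no ovary-intact or chow-fed liver serves as a reference. One group received follicle-stimulating hormone (FSH, 5 libraries, numbered 1, 2, 3, 4 and 6), and the other saline (6 libraries). The question was what FSH, given after loss of the ovaries, does to gene expression in the liver. Between 10801891 and 19909327 reads per library were counted on genes. The labels do not say that each library is a separate mouse, so p-values measure the spread between these libraries.

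Hepatocytes make bile acids from cholesterol, pump them into bile, and recover most of them from portal blood. Bile acids are sensed in the hepatocyte by the nuclear receptor FXR, the product of Nr1h4, which induces Nr0b2, the gene of the corepressor SHP. In the ileum the same receptor induces FGF15 (FGF19 in humans), a hormone that reaches the liver and binds FGFR4 together with its co-receptor beta-Klotho, the product of Klb. Both routes are known to lower transcription of Cyp7a1, the rate-limiting enzyme of bile acid synthesis.

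FSH-treated livers had less Nr0b2 and less Fgfr4 mRNA and more Slc10a1 mRNA than saline-treated livers, while the other 7 genes did not pass the test. The mean of Nr0b2 fell by 63.0%, that of Fgfr4 fell by 28.8%, and that of Slc10a1 was 24.1% higher. With limma on log2(CPM + 0.5) and Benjamini-Hochberg adjustment over all 12733 genes, 3 of the 10 genes had an adjusted p under 0.05, where 10.6% of all genes tested did. Without FSH 1 or without FSH 3 the count was 1, Nr0b2. In those fits 803 of 12717 and 910 of 12735 genes tested were called. Slc10a1 was called in 10 of 22 alternative analyses. By direction, 1 of 10 was higher with FSH (6.19% of all genes tested were) and 2 of 10 were lower (4.41% of all genes tested were). Nr0b2 alone also passed the study's threshold of an absolute log2 fold change over 1, as did 1.83% of all genes tested. For 0 of the 10 genes were the FSH and saline values free of overlap, against 6.67% of all genes tested. The median log2 fold change of the 10 genes was -0.066, beside 0.024 over all genes tested. In liver tissue, fewer cells of a type and less RNA per cell cannot be told apart.

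To show the DNA in front of the gene with the largest called change and of the gene that rose, the 250 bases before their annotated starts are printed from RefSeq (GRCm38.p6), 5′ to 3′ on the gene's strand. Capitals mark matches, on either strand, to the nuclear receptor half-sites AGGTCA and GGGTCA, the E-box CACGTG, or the half-site TGTTCT that the glucocorticoid receptor is known to bind. Slc10a1 has a pair of annotated starts, and the second lies inside the gene. None of the 3 stretches covers an annotated exon.
Nr0b2, chr4:133553126-133553375, plus strand: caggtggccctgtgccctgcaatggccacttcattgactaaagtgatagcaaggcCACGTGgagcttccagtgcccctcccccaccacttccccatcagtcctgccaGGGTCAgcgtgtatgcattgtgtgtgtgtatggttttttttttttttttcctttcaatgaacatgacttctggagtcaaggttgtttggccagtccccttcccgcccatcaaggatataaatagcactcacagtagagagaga
Slc10a1, upstream start, chr12:80968706-80968955, minus strand: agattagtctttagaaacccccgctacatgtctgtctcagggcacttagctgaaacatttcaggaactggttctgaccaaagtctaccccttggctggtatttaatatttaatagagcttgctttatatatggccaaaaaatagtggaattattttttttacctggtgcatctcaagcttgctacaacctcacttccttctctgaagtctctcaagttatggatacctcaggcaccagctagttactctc
Slc10a1, downstream start, chr12:80968080-80968329, minus strand: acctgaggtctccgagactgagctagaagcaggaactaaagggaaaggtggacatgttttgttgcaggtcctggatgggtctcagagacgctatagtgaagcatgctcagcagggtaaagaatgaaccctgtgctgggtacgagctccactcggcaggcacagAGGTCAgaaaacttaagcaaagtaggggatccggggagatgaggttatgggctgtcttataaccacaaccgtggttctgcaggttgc

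Matches were searched in windows of 250 bases before to 50 after each start, which were held for all 10 genes (11 windows) and for 32851 starts in all. The RefSeq starts of Nr1h4, Klb, Fgfr4, Abcb4 and Abcc2 lie inside the gene spans given with each gene, that of Nr1h4 farthest. The Nr0b2 window holds CACGTG 195 bases and GGGTCA 143 bases before the start, letters found in 7.15% and 13.7% of all windows. Of the 10 genes, only Nr0b2 has CACGTG in its window, while GGGTCA also occurs in that of Klb. AGGTCA, found in 16.3% of all windows, lies 87 bases before the downstream start of Slc10a1, and it also occurs in windows of Nr1h4, Slco1a1, Slco1b2, Abcb11 and Abcc2. TGTTCT, found in 19% of all windows, occurs in those of Abcb11 and Abcb4. The window of Fgfr4 holds none of these letters. An inverted repeat of AGGTCA with 1 base between, the form classically bound by FXR with RXR, is in 0.00913% of all windows and in none of the 11.

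Nr0b2 (ENSMUSG00000037583.2, GRCm38 chromosome 4, 133553376 to 133556536, plus strand) encodes SHP, a nuclear receptor without a DNA-binding domain that represses other nuclear receptors. Its level was 54.5, 33.0, 35.2, 41.8 and 24.9 CPM in FSH libraries 1, 2, 3, 4 and 6. Over the saline libraries the lowest was 34.5, the median 104.1 and the highest 160.3 CPM. All 5 FSH values were under the saline median, but saline 6, the lowest, lay within the FSH range, and the other saline libraries were at 76.0 CPM or above. The group means were 37.9 ± 11.1 CPM for FSH (SD, n = 5) and 102.3 ± 44.2 CPM for saline (SD, n = 6). This is a log2 fold change of -1.32 with a standard error of 0.31 and a 95% confidence interval of -1.98 to -0.66 (limma, adjusted p = 0.0142). A two-sided exact permutation test over the libraries, in which 0.00433 is the smallest possible p, gave p = 0.0173 for Nr0b2. Nr0b2 passed an adjusted p of 0.05 in 22 of 22 alternative analyses, and without saline 6 its log2 fold change was -1.60.

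Nr1h4 (ENSMUSG00000047638.9, chromosome 10, 89454234 to 89533585, minus strand), the gene of FXR itself, did not pass the test, although all 5 FSH values were above the saline median and 2 were above every saline library. It had 101.4, 110.6, 117.7, 118.1 and 106.7 CPM in the FSH libraries and 86.4 (lowest), 100.4 (median) and 112.6 CPM (highest) in the saline libraries. The log2 fold change of 0.16 had a 95% confidence interval from -0.028 to 0.34 (limma, adjusted p = 0.285), and its exact permutation p was 0.0736. Within a library, the ratio of Nr0b2 to Nr1h4 CPM ranged from 0.233 to 0.538 with FSH and from 0.383 to 1.48 with saline. These ranges overlap through saline 6 (0.383) and FSH 1 (0.538).

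Fgfr4 (ENSMUSG00000005320.9, chromosome 13, 55152640 to 55168759, plus strand) encodes the FGF receptor through which hepatocytes answer FGF15. The FSH libraries had 26.6, 29.7, 28.3, 29.3 and 40.1 CPM, and the saline libraries 34.7 (lowest), 42.1 (median) and 50.6 CPM (highest). Of the 5 FSH libraries, 4 lay below every saline library, and FSH 6 lay among them. The mean fell from 43.2 ± 6.11 CPM (SD, n = 6) in saline libraries to 30.8 ± 5.37 CPM (SD, n = 5) in FSH libraries. On the log2 scale the difference for Fgfr4 was -0.49 with a standard error of 0.12 (limma, adjusted p = 0.0193), and its exact permutation p was 0.0130. The call was lost without FSH 1 (-0.44, limma adjusted p = 0.0633), without FSH 3 (-0.46, limma adjusted p = 0.0526), and without FSH 2, saline 2 and saline 6 together (-0.36, limma adjusted p = 0.129).

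Klb (ENSMUSG00000029195.7, chromosome 5, 65348314 to 65384007, plus strand), the co-receptor gene, lay on the other side of 0. It had 17.3, 21.8, 14.6, 13.05 and 12.8 CPM with FSH and 8.22 (lowest), 10.96 (median) and 18.3 CPM (highest) with saline. All 5 FSH values were above the saline median, yet saline 2 and saline 6 were inside the FSH range. The log2 fold change of 0.37 (95% confidence interval -0.039 to 0.77) did not pass the test (limma adjusted p = 0.248). The ratio of Fgfr4 to Klb CPM within a library was 1.36 to 3.14 with FSH and 2.76 to 5.18 with saline, and these ranges overlap.

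**Figure D1:**
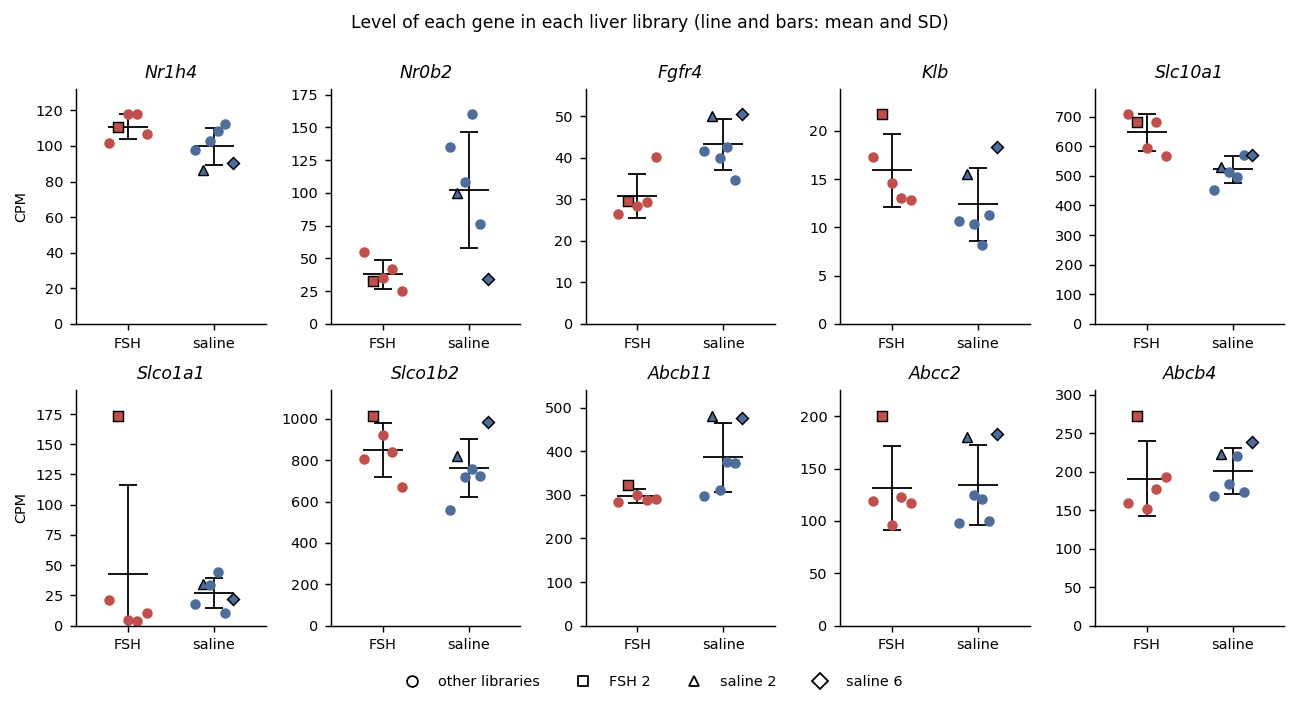
CPM of the 10 genes in each of the 5 FSH and 6 saline libraries, with each axis starting at 0, the long line at the group mean and bars of 1 SD, the lower bar for Slco1a1 with FSH running below 0. For Nr0b2 the 5 FSH values lie below 5 of the 6 saline values, and for Slco1a1 a single FSH library, FSH 2, is at 173.8 CPM.

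Slc10a1 (ENSMUSG00000021135.7, chromosome 12, 80953183 to 80968705, minus strand) encodes NTCP, the sodium-coupled carrier that takes up conjugated bile acids at the sinusoidal membrane. It had 709.4, 683.5, 594.9, 681.9 and 568.2 CPM with FSH and 451.5 (lowest), 521.9 (median) and 569.4 CPM (highest) with saline. All 5 FSH values were above the saline median and 4 were above every saline library, the exception being FSH 6. The means were 647.6 ± 62.0 CPM (SD, n = 5) and 521.7 ± 45.4 CPM (SD, n = 6). For Slc10a1 the log2 difference was 0.31 (standard error 0.090, 95% confidence interval 0.12 to 0.50, limma adjusted p = 0.0390) and an exact permutation p of 0.0130. Its direction was the same in 22 of 22 alternative analyses, but the call was kept in 10 of them, and it was lost on leaving out any one of FSH 1, 2, 3 and 4 and saline 1, 2, 3 and 4 (limma adjusted p from 0.0503 to 0.117).

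Slco1b2 (ENSMUSG00000030236.8, chromosome 6, 141629518 to 141686646, plus strand), which encodes the organic anion carrier OATP1B2, had 805.7, 1016.4, 920.3, 840.0 and 668.3 CPM with FSH. In the saline libraries it had 557.1 (lowest), 742.1 (median) and 984.5 CPM (highest), and 5 of the 6 saline values lay inside the FSH range. Its log2 fold change was 0.17 (95% confidence interval -0.12 to 0.46, limma adjusted p = 0.494).

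Slco1a1 (ENSMUSG00000041698.5, chromosome 6, 141907282 to 141946962, minus strand), whose product OATP1A1 is a multispecific carrier and whose expression is known to be higher in male than in female mouse liver, varied most. It had 20.9, 173.8, 4.98, 3.88 and 10.7 CPM with FSH and 10.5 (lowest), 27.95 (median) and 44.7 CPM (highest) with saline. FSH 2 was thus over every other library of the study, while FSH 3 and FSH 4 were under every saline library. Because of FSH 2, the arithmetic mean was higher with FSH (42.9 ± 73.5 CPM, SD, n = 5) than with saline (27.1 ± 12.6 CPM, SD, n = 6), although the log2 fold change was -0.65 (95% confidence interval -2.20 to 0.90, limma adjusted p = 0.635). Without FSH 2 the log2 fold change was -1.52 (limma adjusted p = 0.0447), past both thresholds, whereas edgeR on the recovered reads of all libraries turned its direction (0.58, adjusted p = 0.693). Slco1a1 has close paralogs next to it in the genome (Slco1a4 among them) and how reads shared between them were counted is not stated, so its level is uncertain. Of 9 tested male-biased liver genes, FSH 2 was the highest FSH library for 8 and the lowest for 0, and of 14 female-biased genes it was the highest for 1 (Acot3) and the lowest for 8. In 2 of them, picked after their values were seen, FSH 2 had 8.19 CPM of Hsd3b5 (0.175 to 0.753 in the other FSH libraries) and 3.47 CPM of Sult2a1 (209.1 to 517.9 in the other FSH libraries). Whether these values share a cause with that of Slco1a1 was not tested.

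Abcb11 (ENSMUSG00000027048.9, chromosome 2, 69238282 to 69342616, minus strand) encodes BSEP, the pump that moves bile salts into the canaliculus. Its FSH values lay close together at 282.4, 323.4, 300.5, 289.0 and 290.9 CPM, a coefficient of variation of 5.38%. The saline libraries ran from 297.1 over a median of 373.8 to 481.8 CPM, a coefficient of variation of 20.4%. The low end of the saline range, saline 1 and saline 3, lay within the FSH range, and 3 of 5 FSH libraries were below every saline library. The log2 fold change of -0.35 had an unadjusted 95% confidence interval of -0.62 to -0.089 and an exact permutation p of 0.0303, but it did not pass over all genes (limma adjusted p = 0.0840). It did pass with edgeR on the recovered reads (-0.40, adjusted p = 0.0462) and without saline 1 (-0.42, limma adjusted p = 0.0360). Exons of Abcb11 overlap the antisense gene Gm13613 and the pseudogene Gm13614 on the opposite strand, and use of strand in counting is not given in the sources used here.

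Abcc2 (ENSMUSG00000025194.4, chromosome 19, 43782192 to 43840740, plus strand) encodes MRP2, which exports bilirubin glucuronides and other organic anions. It had 119.3, 200.6, 96.1, 123.1 and 116.6 CPM with FSH and 98.05 (lowest), 122.7 (median) and 183.2 CPM (highest) with saline, so that all 6 saline values lay inside the FSH range. The log2 fold change was -0.036 (95% confidence interval -0.46 to 0.38, limma adjusted p = 0.938). Abcb4 (ENSMUSG00000042476.8, chromosome 5, 8893717 to 8959231, plus strand) encodes MDR2, the flippase that supplies phosphatidylcholine to bile. It had 159.5, 272.8, 150.8, 177.5 and 193.2 CPM with FSH and 168.4 (lowest), 202.1 (median) and 238.2 CPM (highest) with saline. All 6 saline values again lay inside the FSH range, with a log2 fold change of -0.096 (95% confidence interval -0.40 to 0.21, limma adjusted p = 0.736).

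By role, the log2 fold changes of the uptake genes lay on both sides of 0 (2 above, 1 below), and those of the 3 canalicular genes were below 0, except that Abcc2 turned above 0 without FSH 3, saline 2 or saline 6 and without FSH 2, saline 2 and saline 6 together. In a ratio picked after the values were seen, and given without a test, Slc10a1 CPM over Abcb11 CPM in the same library was 1.95 to 2.51 with FSH and 1.10 to 1.65 with saline. These ranges did not overlap. The differences with their intervals are shown in the plot of log2 fold changes by gene.

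**Figure D2:**
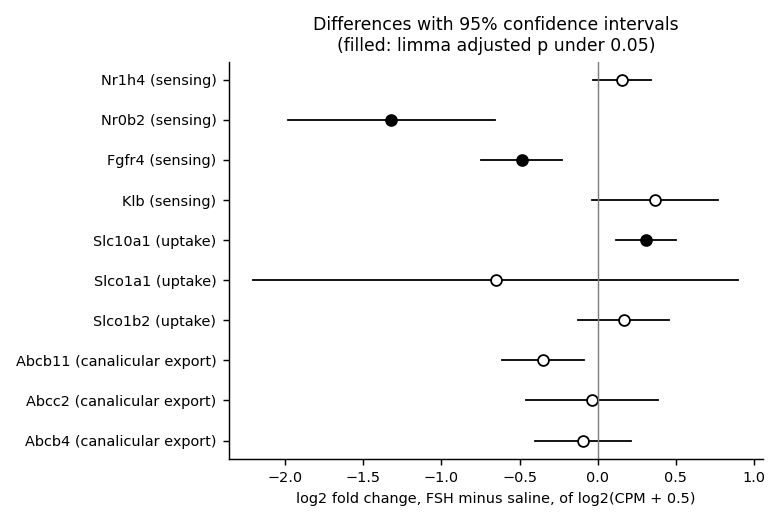
Log2 fold change of each gene (FSH minus saline, on the log2(CPM + 0.5) scale) with its unadjusted 95% confidence interval, ordered by role. Filled points mark Nr0b2 (-1.32), Fgfr4 (-0.49) and Slc10a1 (0.31), which had a limma adjusted p under 0.05, and the interval of Slco1a1 is the widest of the 10.

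Per kilobase of exon, levels between the genes can be set side by side, though only roughly. The length used joins all annotated exons of a gene, which may exceed the transcripts present in liver. The annotation behind the counts is not given, and the level of Slco1a1 is uncertain, as stated above. In the FSH libraries Slc10a1 was highest at 294.5 ± 28.2 CPM per kilobase (SD, n = 5), followed by Slco1b2 at 172.5 ± 26.4 and Abcb11 at 57.8 ± 3.11. The ranges of these 3 genes did not overlap their neighbours in the order. Next came Nr1h4 (48.2 ± 3.11), Nr0b2 (33.5 ± 9.80), Abcb4 (20.3 ± 5.19) and Abcc2 (15.4 ± 4.71), and the last 3 each overlapped the gene before. The lowest 3 were Fgfr4 (8.69 ± 1.52), Slco1a1 (8.12 ± 13.9) and Klb (3.49 ± 0.821), again with overlap between neighbours. The place of Slco1a1 rested on FSH 2, since without it Slco1a1 had 1.92 ± 1.48 CPM per kilobase (SD, n = 4) and stood under Klb at 3.17 ± 0.453, as it did in 3 of the 5 FSH libraries. In the saline libraries the order over all libraries differed in the place of Nr0b2, and also in that of Slco1a1 once FSH 2 was left out. Nr0b2 at 90.4 ± 39.0 CPM per kilobase (SD, n = 6) stood above Abcb11 (75.0 ± 15.3) and above Nr1h4 (43.3 ± 4.44), with ranges that overlapped both. In these libraries Nr0b2 ran from 30.5 to 141.6 and Nr1h4 from 37.5 to 48.9 CPM per kilobase. The receptor Fgfr4 (12.2 ± 1.73) was above its partner Klb (2.72 ± 0.832) in both groups.

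Within groups, the genes shared libraries at their upper end. FSH 2 was the highest FSH library for 6 of the 10 genes (Klb, Slco1a1, Slco1b2, Abcb11, Abcc2 and Abcb4), as it was for 33.5% of all genes tested. Saline 6 was the highest saline library for 6 of the 10 (Fgfr4, Klb, Slc10a1, Slco1b2, Abcc2 and Abcb4), as it was for 22.2% of all genes tested. For 6 of the 10, saline 2 and saline 6 were the highest pair of the saline group, as they were for 16.5% of all genes tested. These 3 libraries also had the highest values of their groups on the second principal component of all genes tested, 27.3 for FSH 2, 24.0 for saline 2 and 15.1 for saline 6, with the others at -16.5 to 4.89. Nr0b2 went the other way in saline 6, with a deviation of -1.41 log2 units from its group mean. With the 3 libraries left out, 1 of the 10 genes (Nr0b2, log2 fold change -1.61, limma adjusted p = 0.00255) had an adjusted p under 0.05 in place of 3. Calls over all genes also fell, to 849 of 12714 tested from 1350 of 12733.

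**Figure D3:**
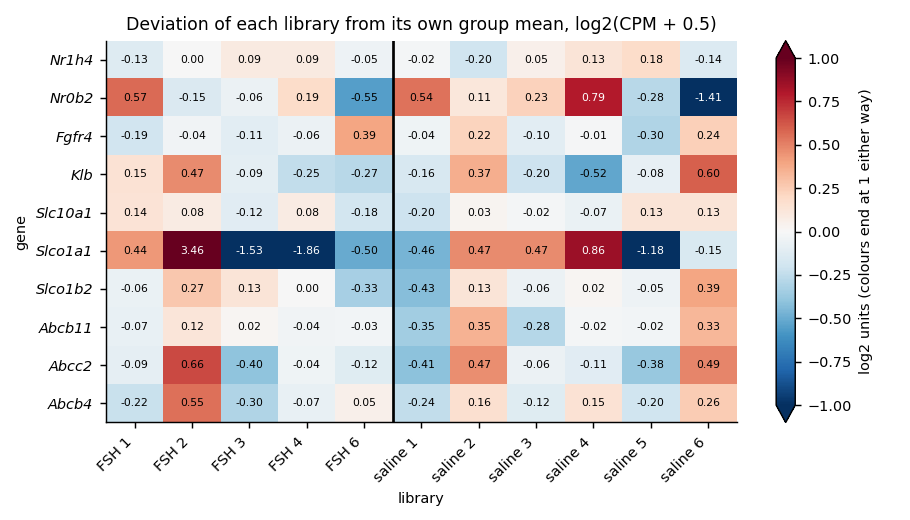
Deviation of each library from its own group mean on the log2(CPM + 0.5) scale, genes in rows and libraries in columns, with a black line between the groups and colours that end at 1 log2 unit either way. Abcc2 is high in FSH 2 (0.66), saline 2 (0.47) and saline 6 (0.49), and Slco1a1 in FSH 2 stands 3.46 above its group mean.

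For each gene that passed the test, the 3 genes with the most similar course over the 11 libraries, after removal of the group means, were named by Pearson's r. For Nr0b2 they included Pdcd6 (0.92) and Timm44 (0.92). For Fgfr4 they were C3 (0.95), Dpp9 (0.94) and Usf2 (0.94), and for Slc10a1 they included Hmgb2 (0.95) and Cd274 (0.93). These are the highest values among 12733 genes over few points that share their libraries and depth, and are given as a description. Of the genes named here, Dpp9 was lower with FSH (log2 fold change -1.23, limma adjusted p = 4.58e-05) and Pdcd6 was higher (0.33, limma adjusted p = 0.0167).

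Beside the 10 genes, 73 of 80 listed genes of bile acid handling were tested, and 5 were higher and 7 lower with FSH at an adjusted p under 0.05 (16.4% of the 73, beside 10.6% of all genes tested). Their median log2 fold change was -0.0092. Of 18 tested genes of other bile acid and bile lipid transport, 3 were higher and 0 lower. These were Slc51b, a subunit of the basolateral exporter OST (2.54 ± 1.08 CPM, SD, n = 5, against 0.813 ± 0.192, SD, n = 6), and Abcg5 and Abcg8, which together form the canalicular sterol pump. The saline values of Slc51b, 0.555 to 1.05 CPM, rest on few reads, as 3 reads make 0.278 CPM in the shallowest library. Abcg5 had 85.4 to 140.2 CPM with FSH and 58.4 to 69.9 with saline (log2 fold change 0.77, limma adjusted p = 0.00155), and Abcg8 82.4 to 157.6 and 48.9 to 74.6 (0.84, limma adjusted p = 0.00559). Neither gene's groups overlapped. Slc51a, which encodes the other subunit of OST, is listed at 0 in all libraries, where a gene without reads could have had up to 0.151 CPM in the deepest and 0.278 CPM in the shallowest (3 reads, counting error only).

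Of 15 tested FXR partners and other bile acid receptors, 0 were higher and 1 was lower. This was Hnf4a, a nuclear receptor of hepatocyte identity, at 355.4 ± 52.3 CPM (SD, n = 5) against 486.2 ± 85.6 CPM (SD, n = 6), a log2 difference of -0.44 (limma, adjusted p = 0.0369). The call of Hnf4a was kept in 13 of 22 alternative analyses and was lost on leaving out any one of FSH 1, 2, 3 and 4 and saline 2, 4 and 6 (limma adjusted p up to 0.1001). The FXR partner Rxra was at -0.16 on the log2 scale (limma, adjusted p = 0.423). Of 12 tested genes of the FGF15/19 pathway, 0 were higher and 1 was lower, the adaptor Grb2, at 42.8 to 50.04 CPM with FSH and 57.4 to 59.7 with saline (log2 fold change -0.34, limma adjusted p = 0.00562). Fgf15 itself, an ileal gene, is listed at 0 in all libraries.

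Of 17 tested genes of bile acid synthesis and conjugation, 1 was higher and 3 were lower. Cyp7a1 had 67.5, 132.4, 75.6, 111.0 and 124.7 CPM with FSH and 28.0 (lowest), 51.3 (median) and 66.9 CPM (highest) with saline. Its groups did not overlap, although FSH 1 and saline 1 lay next to each other. The groups differed by 1.06 on the log2 scale, with a standard error of 0.23 (limma, adjusted p = 0.00884). Lower with FSH were Hsd3b7, the enzyme that follows Cyp7a1 (log2 fold change -0.62), Acox2, a side-chain oxidase of peroxisomes (-0.71), and Cyp46a1, a cholesterol 24-hydroxylase (-0.56). Cyp46a1 was called in 20 of 22 alternative analyses, and missed the threshold without FSH 3 (limma adjusted p = 0.0505) and without FSH 2, saline 2 and saline 6 together. Cyp8b1, the sterol 12-alpha-hydroxylase, was at -0.11 on the log2 scale (limma, adjusted p = 0.722).

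Of 17 other tested FXR target genes, 3 were higher and 2 were lower. Slc51b and Cyp7a1 among them were already counted in the lists above. Higher were Slc51b, Cyp7a1 (a gene that FXR is known to repress) and Pltp, the phospholipid transfer protein (log2 fold change 0.81). Lower were Insig2, which retains SREBP in the endoplasmic reticulum, at 106.1 to 174.0 CPM with FSH and 277.7 to 404.6 with saline (-1.44, limma adjusted p = 2.07e-05), and Fgb, the fibrinogen beta chain (-0.38). Fgb was called in 13 of 22 alternative analyses, and its call was lost on leaving out any one of FSH 1, 2, 3 and 4 and saline 2 and 5 (limma adjusted p up to 0.0682).

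**Figure D4:**
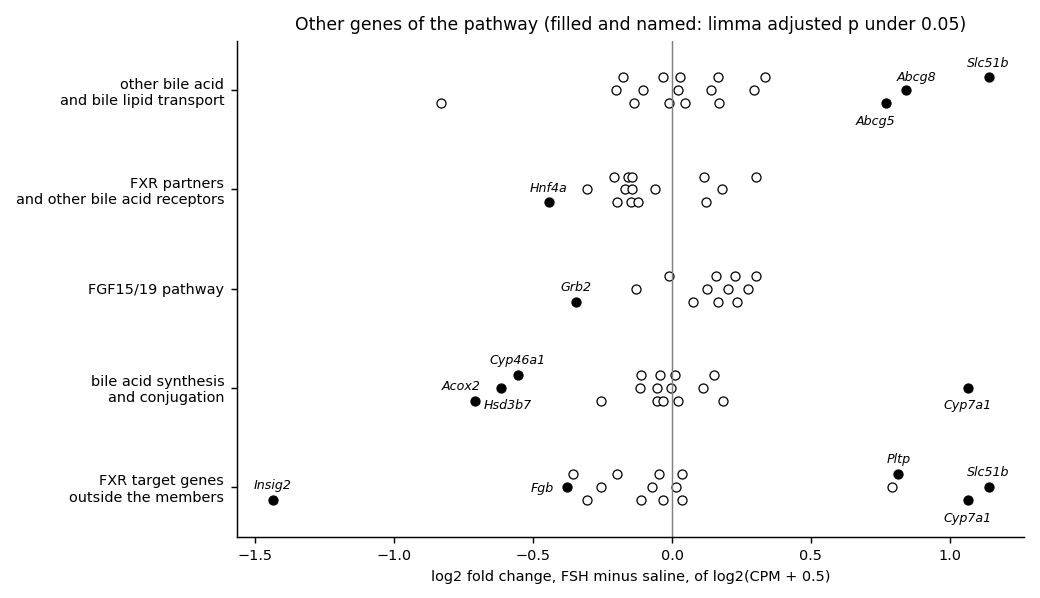
Log2 fold change (FSH minus saline, log2(CPM + 0.5) scale) of each tested gene of 5 lists of bile acid handling, with vertical offsets only to keep points apart. Each list has 1 point per gene, and a gene in more than 1 list is drawn in each. Filled, named points had a limma adjusted p under 0.05, from Insig2 at -1.44 to Slc51b at 1.14, and most open points lie near 0.

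The livers carried hepatocyte transcripts in bulk, with the 8 hepatocyte markers summing to 101672 to 120565 CPM with FSH and 96147 to 123849 CPM with saline, and 0 of 8 called. All 7 Kupffer cell markers had a log2 fold change below 0, with 0 called, and summed to 108.3 to 297.6 CPM with FSH and 176.9 to 351.4 with saline. Of 7 endothelial markers 1 was lower (Lyve1), of 6 tested cholangiocyte markers 1 was higher (Krt7), and of 7 stellate markers 0 were called, with all 7 log2 fold changes below 0. Few pancreatic acinar (2 of 8), intestinal (2 of 7) and adipocyte markers (1 of 6, Pck1) reached the level needed for a test. Of the erythroid markers 5 of 6 did, and the 6 summed to 464.2 to 790.1 CPM with FSH and 424.8 to 1009.6 with saline. Of all these tested markers 0 were called, and Prss2, Pnlip, Cdx1, Cdx2 and Lep were at 0 in all libraries. Clock genes differed widely, with 6 of 17 higher and 6 lower. Dbp, a clock output gene, had 42.6 to 121.0 CPM with FSH and 3.40 to 4.95 with saline, and the labels give no time of day of sampling. Of 9 tested male-biased liver genes, Nudt7 was higher and Mup20 and Elovl3 were lower, and of 14 female-biased genes Cux2 and Acot3 were higher. The part of the clock, of sex-biased expression and of other cell types in the differences of the 10 genes was not tested.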

How the data were processed

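NEBNext Ultra libraries of liver RNA were sequenced in pairs of 100 bp. The labels mention digestion with papain before extraction and the series' design text a column kit from tissue. The submitters' processing notes name FastQC 0.11.2, cutadapt, Trim Galore 0.3.3, STAR, RSEM and mm10. The authors deposited CPM values summing to 1000000 per library, without scaling between libraries. All values (100%, tolerance 0.01) gave whole reads, 10801891 to 19909327 per library, and 60 or more reads lay behind every value of the 10 genes.

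For genes averaging 0.5 CPM or more, limma 3.58.1 (eBayes with trend) was run on log2(CPM + 0.5), which understates changes of low genes. Symbols and positions come from GENCODE M21 (GRCm38, the same build as mm10), which left 1233 identifiers unnamed. The members and lists were chosen with earlier results of these data known. From each other list the called genes were named, or the 3 with the smallest p where none or more than 5 were called. Rxra, Cyp8b1, Hsd3b5, Sult2a1 and the genes listed at 0 were added after their values were seen. Library pairs within a group differed by more than sampling noise (lowest mean chi-square 10.6). Tested on simulated data, limma found 39.0% of genes changed 1.5-fold and 100% of those changed 3-fold, with 4.14% false calls (12710 genes). The simulation changed 200 genes, gave every gene the same dispersion (0.032) and held no differences shared by libraries. These rates need not hold for genes with a wider spread, such as Nr0b2 and Slco1a1. Alternatives were pseudocounts, filters, scalings, voom, edgeR 4.0.16 on recovered reads, thinned reads, a replicate block and libraries left out. Some genes that this naming rule picks are not reported here.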

Additional observations from a re-analysis of the deposited data

Results flagged for a closer look

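In 3 of the 20 groups of values examined (10 genes, 2 treatments), 1 library lay far from the others by Dixon's test, where chance gives about 1 in 20. Fgfr4 in FSH 6 was at 40.1 CPM, with the other FSH libraries at 26.6 to 29.7 CPM. Slco1a1 in FSH 2 was at 173.8 CPM, with the others at 3.88 to 20.9 CPM, and Abcc2 in FSH 2 was at 200.6 CPM, with the others at 96.1 to 123.1 CPM. Without FSH 6 the log2 fold change of Fgfr4 was -0.59 (limma adjusted p = 0.0035).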

How the results depend on the processing

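Over 22 alternative analyses of the 10 log2 fold changes, 197 of 220 values kept direction and side of the threshold. The number of genes past an adjusted p of 0.05 was 1 to 3 on leaving out 1 library, and 1 without FSH 2, saline 2 and saline 6 together, an analysis chosen after seeing the data. The number past both thresholds was 1 to 2 (Slco1a1 added without FSH 2). Slc10a1 missed the threshold without a filter (0.31, adjusted p = 0.0708), with edgeR (0.28, adjusted p = 0.0513), without the 3 libraries (0.33, adjusted p = 0.0818), and in the replicate block (0.34, adjusted p = 0.0713), while Fgfr4 without the 3 libraries had -0.36 and Abcb11 passed with edgeR (-0.40). Slco1a1 reversed with edgeR (0.58, adjusted p = 0.693), and Abcc2, never called, was at 0.038 without the 3 libraries. On leaving out 1 library the log2 fold changes ran from -0.20 to 0.064 for Abcc2, -0.59 to -0.44 for Fgfr4, 0.27 to 0.36 for Slc10a1, -1.52 to -0.19 for Slco1a1 and -0.42 to -0.28 for Abcb11. The cause of these changes was not tested. The pathway genes called numbered 9 to 15 throughout.

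Same-numbered libraries had correlated deviations of -0.066 to 0.36, and only FSH 2 correlated best with its own number. Correlations over all genes cannot settle whether the label numbers pair the livers. The replicate block, which drops saline 5, called 2 of the 10 genes and 1214 of all genes tested in place of 1350. Against the fit without saline 5, the block lowered the standard error of Nr0b2 from 0.33 to 0.18 and that of Fgfr4 from 0.118 to 0.093. The standard error of Slc10a1 rose from 0.093 to 0.103. Over all genes, calls on leaving out 1 library ran from 803 without FSH 1 to 1659 without FSH 6, and 849 were called without the 3 libraries. A missed threshold for the smaller differences does not show that levels were equal.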
